A study of Mus musculus with 2 samples.

Results

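The Mmp12-high macrophages of the healing wound were the cells of a gate on single-cell RNA counts. A cell entered the gate with at least 5 UMIs (unique molecular identifiers, 1 per captured RNA molecule) of Lyz2, the lysozyme gene of myeloid cells, and at least 5 UMIs of Mmp12. It also had to hold fewer than 2 UMIs of Cd209a, fewer than 2 of Cd207, fewer than 2 of Cd3d, Cd3e and Cd3g together and fewer than 20 of Col1a1 and Col1a2 together, limits aimed at dendritic cells, Langerhans cells, T cells and fibroblasts. Of 24649 cells with at least 500 UMIs, 300 genes and at most 15% mitochondrial UMIs, 288 met the rule, 187 in the library WT_LW and 101 in the library TLR9agonist_LW. The cells were selected on their own Mmp12, Lyz2 and exclusion counts, so levels of both genes, and differences of the gate from other cells, are given as description. Both libraries came from wild-type male C57BL/6J mice aged 6 to 8 weeks with a circular dorsal wound 1.8 cm across. By the labels, WT_LW wounds received PBS, while the study also describes a control oligodeoxynucleotide for this group, so the control used for this library is not settled. TLR9agonist_LW wounds received the CpG oligodeoxynucleotide ODN2395, an agonist of Toll-like receptor 9, on days 0, 3 and 6, with 4 µg of agonist each time by the study's methods. The wound centre was taken 2 days after the scab came off, epidermis and dermis were separated with enzymes and dissociated, and cells of several mice were pooled into 1 library per group. With 1 library per group there was no test between the groups. A difference between the pools of mice or between the preparations cannot be told apart from the treatment, and every interval below is a 95% interval for counting error only.

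Mmp12 encodes macrophage elastase, a secreted zinc protease that cleaves elastin and other matrix proteins and is made mainly by macrophages. Macrophages of a wound arise in large part from blood monocytes, pass through an early state rich in cytokines, and later clear debris, remodel matrix and supply growth factors. Toll-like receptor 9 sits in endosomes, binds unmethylated CpG DNA and signals through MyD88 to NF-kB and interferon regulatory factors. The other genes proposed as marks of these cells have diverse roles. Rnf128 (GRAIL) is an E3 ubiquitin ligase known from T cell anergy, Atp6v0d2 is a subunit of the proton pump V-ATPase typical of osteoclasts, Slc7a2 carries arginine and other cationic amino acids into the cell, and Inhba encodes the subunit that pairs with itself to form activin A.

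Mmp12 is shown here with the sequence before its start because it is the gene that defines the cells. RefSeq lists 2 starts for mouse Mmp12 on the forward strand of chromosome 9 (GRCm38.p6). The 250 bases before the downstream start are printed 5′ to 3′, with a match to the AP-1 motif TGANTCA, searched on both strands, in capitals.
Mmp12 upstream, chr9:7347124-7347373: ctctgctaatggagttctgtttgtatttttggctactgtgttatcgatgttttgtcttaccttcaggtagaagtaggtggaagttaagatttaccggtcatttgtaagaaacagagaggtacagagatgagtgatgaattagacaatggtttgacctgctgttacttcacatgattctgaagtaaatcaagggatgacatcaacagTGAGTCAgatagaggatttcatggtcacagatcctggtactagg
The match TGAGTCA lay 44 to 38 bases before the start. The same number of bases before the other start (chr9:7344147-7344396) held 0 matches. The stretch printed is thus the one with a match, and which start these cells use was not tested. Of 32851 such upstream stretches in the RefSeq table, 2217 (6.75%) held the motif, and a match of letters is not evidence of binding. AP-1 is the dimer of Fos and Jun proteins, whose transcripts are described with the stress genes.

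The deposited cells held 99374045 UMIs in WT_LW and 132339022 in TLR9agonist_LW. The gate held 2500155 UMIs in WT_LW, with a median of 11910 per cell (730 to 35840), and 1516278 UMIs in TLR9agonist_LW, with a median of 14011 per cell (1015 to 49987). The median mitochondrial share was 2.52% and 1.75%. The libraries shared 47 cell barcodes, of which 0 gated cells of WT_LW and 1 of TLR9agonist_LW carried one. A doublet score, ranked at a rate of 10.2% and 11.0%, marked 13 of 187 (6.95%) and 3 of 101 (2.97%) gated cells, and doublets were kept. T cells (at least 3 UMIs of the Cd3 genes, 3621 and 4101 cells with medians of 4593 and 4932 UMIs) gave the level that free RNA, or transcripts of their own, can produce. The summed keratinocyte and neutrophil markers were higher in TLR9agonist_LW in all these cell classes, and their values stand beside the results below.

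Fewer cells of TLR9agonist_LW met the rule. The gate held 1.63% (exact binomial interval, 1.41 to 1.88) of all filtered cells in WT_LW, 187 of 11443, and 0.765% (0.623 to 0.929) in TLR9agonist_LW, 101 of 13206. The log2 ratio of TLR9agonist_LW to WT_LW was -1.10 (-1.46 to -0.74). Lyz2 cells that passed the same exclusions were themselves fewer, 1514 and 977, and within them the gate took 12.4% (10.7 to 14.1) and 10.3% (8.50 to 12.4), a log2 ratio of -0.26 (-0.62 to 0.10). The share among Lyz2 cells thus differed by less than its counting error with all gated cells. As an alternative, cells at or above fixed UMI limits on other lineages were left out of the gate and of the Lyz2 cells. These limits were on Krt5, Krt14 and Krt6a together, on S100a8 and S100a9 together, and on Pecam1 and Cdh5 together. This kept 165 and 27 gated cells. The log2 ratio was -2.82 against all filtered cells, to which these limits were not applied, and -0.82 (-1.47 to -0.23) among Lyz2 cells. With only the keratinocyte and endothelial limits, an alternative added after the data were seen, 166 and 51 gated cells stayed and the latter was -0.52 (-1.005 to -0.062). The summed keratinocyte and neutrophil markers were higher in TLR9agonist_LW in all these cell classes, but not each gene of the limits. In the gate, Krt5 lay at 210.4 and 36.9 CPM, Krt14 at 467 and 247 CPM and Krt6a at 45.6 and 126 CPM. In WT_LW, 1 cell held 408 Krt14 UMIs. A UMI of Krt14 was in 63.1% and 92.1% of gated cells, of Krt6a in 23.5% and 66.3% and of Krt5 in 29.95% and 40.6%. More cells there carried these transcripts, so fixed limits can remove more cells there. These shares therefore cannot tell fewer Mmp12-high cells from more cells past the limits, which was not tested.

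Mmp12 was spread widely within the gate. A gated cell held a median of 16 Mmp12 UMIs in WT_LW (quartiles 7 and 35, highest 501) and 22 in TLR9agonist_LW (8 and 53, highest 671). The 10 highest cells held 39.4% and 46.5% of the Mmp12 UMIs of the gate. In all, 38 cells (20.3%) of WT_LW and 28 (27.7%) of TLR9agonist_LW carried 50 or more. The summed level was 3332 CPM (3261 to 3404) in WT_LW and 3009 (2923 to 3098) in TLR9agonist_LW, where CPM is the count of a gene scaled to a fixed total over all UMIs of these cells, and the values in brackets are exact Poisson intervals. The same minimum of 5 UMIs held in both libraries, and its part in the closeness of these levels was not tested. Just outside the minimum, 14 Lyz2 cells of WT_LW and 7 of TLR9agonist_LW held 4 Mmp12 UMIs, and just inside it 17 and 9 cells held 5, so no gap in the counts marked the gate.

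**Figure D1:**
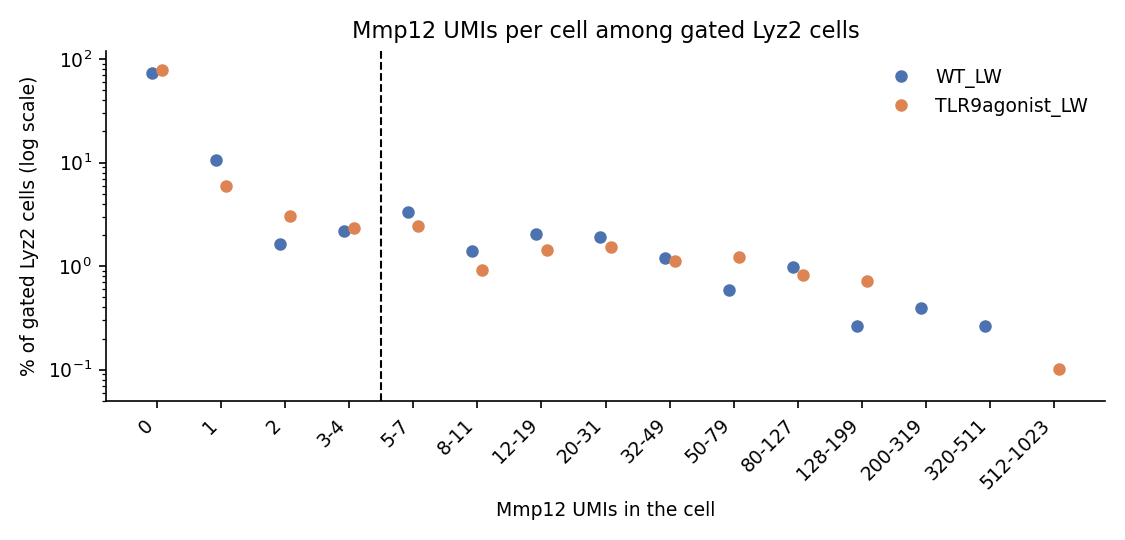
Points give the percentage (log axis) of the gated Lyz2 cells of each library, 1514 in WT_LW and 977 in TLR9agonist_LW, by their number of Mmp12 UMIs, with a dashed line at the minimum of 5. Counts run on without a gap across the line, and a bin with no cell has no point.

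The other limits of the rule also decided which Mmp12 cells were kept. Before the other limits, cells with at least 5 Mmp12 UMIs numbered 309 of 11443 filtered cells in WT_LW and 253 of 13206 in TLR9agonist_LW. The libraries stood closer here than in the gate, with its 187 and 101 cells. In WT_LW, 66 of these failed the limit on Cd209a, 35 that on Lyz2, 22 that on the Cd3 genes, 20 that on Cd207 and 19 that on collagen. In TLR9agonist_LW, 96 failed the limit on Lyz2, 67 that on collagen, 35 that on Cd209a, 34 that on Cd207 and 31 that on the Cd3 genes. A cell could fail more than 1 limit. The gate held 65.2% of the Mmp12 UMIs of all filtered cells in WT_LW and 51.2% in TLR9agonist_LW.

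Most gated cells carried the general markers of macrophages. Csf1r, the receptor of macrophage colony-stimulating factor, had a UMI in 90.4% and 89.1% of the gated cells of WT_LW and TLR9agonist_LW, against 8.45% and 4.85% of T cells. Cd68, a lysosomal glycoprotein, was seen in 91.4% and 92.1% (T cells 9.61% and 6.51%), and Cd14, the co-receptor for lipopolysaccharide, in 89.3% and 94.1% (T cells 11.6% and 10.7%). None of the 13 measured genes of the macrophage identity list was 2-fold apart between the libraries, where 2.74% of all genes tested were at least 2-fold higher in TLR9agonist_LW and 10.2% at least 2-fold lower. The comparison population was the C1q-high macrophages, Lyz2 cells with at least 10 UMIs of C1qa, C1qb and C1qc together and fewer than 5 of Mmp12, which numbered 723 and 562 with medians of 9398 and 7794 UMIs. Adgre1, which encodes F4/80, was in 43.3% and 60.4% of gated cells and in 85.9% and 87.0% of C1q-high macrophages (T cells 5.03% and 3.75%), although the gated cells were the deeper ones. The high-affinity IgG receptor Fcgr1 and the receptor for dying cells Mertk were in 28.9% and 31.7% and in 18.2% and 19.8% of gated cells, against 58.0% and 68.9% and 31.7% and 23.8% of C1q-high macrophages and 2.32% and 1.85% and 1.57% and 1.15% of T cells. Several markers of other leukocytes were near 0 and others were not. The conventional dendritic cell genes Flt3 and Xcr1 lay at 2.4 against 1.32 CPM and 2.8 against 1.32 CPM, the neutrophil genes Retnlg and Cxcr2 at 0 against 0 CPM and 1.6 against 0.659 CPM, and the cytotoxic lymphocyte gene Nkg7 at 7.6 against 0 CPM, each in WT_LW against TLR9agonist_LW. Other genes of the neutrophil list were not near 0. Among them, S100a8 lay at 66 against 399.7 CPM and S100a9 at 24 against 356 CPM. Csf3r lay at 20.4 against 15.2 CPM and Trem1 at 25.6 against 19.1 CPM. The mast cell genes Cma1 and Cpa3 lay at 36.4 against 23.7 CPM and 5.2 against 13.2 CPM, with 54 Cma1 UMIs in 1 cell of WT_LW. Il7r, the interleukin-7 receptor of T cells and innate lymphocytes, lay at 269.6 CPM in WT_LW and 578 in TLR9agonist_LW, for a log2 ratio of 1.10, against 143 and 78.6 CPM in C1q-high macrophages and 585 and 620.3 CPM in T cells, and had a UMI in 67.9% and 88.1% of gated cells. Ccr7, a homing receptor of mature dendritic cells and T cells, lay at 53.2 CPM in WT_LW and 119 in TLR9agonist_LW, in 31 and 15 cells. C1q-high macrophages held 15.5 and 36.3 CPM of it and T cells 85.5 and 109 CPM. In TLR9agonist_LW, 35.4% of the Ccr7 UMIs of the gate came from 1 cell. The log2 ratio of Ccr7, 1.17, turned to -0.71 with cells past the limits on other lineages' UMIs left out. The 11 T and NK cell markers summed to 351 and 637 CPM in the gate and 3913 and 3545 CPM in T cells, with 4 of them at 0 in the gate of TLR9agonist_LW, and the 11 dendritic cell markers to 102 and 143 CPM and 265 and 273 CPM. Their part in the results was not tested.

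The other markers divided the gate rather than filling it. At least 1 of Rnf128, Atp6v0d2, Slc7a2 and Inhba had a UMI in 73.8% of gated cells of WT_LW and 80.2% of TLR9agonist_LW, against 26.4% and 14.95% of C1q-high macrophages and 7.57% and 9.88% of T cells. At least 2 were seen in 48.7% and 48.5%, and all 4 in 17 and 4 cells. All were at least 2-fold higher than in C1q-high macrophages in both libraries, as were 2.72% of all genes tested.

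Rnf128 lay at 99.2 CPM (87.2 to 112) in WT_LW and 75.2 (62.0 to 90.3) in TLR9agonist_LW, against 9.81 and 5.28 CPM in C1q-high macrophages. Its log2 ratio between the libraries was -0.40 (-0.73 to -0.07), and it was seen in 39.6% and 41.6% of gated cells, a nearly equal share (T cells 1.63% and 1.02%). Inhba lay at 544 CPM (515 to 574) in WT_LW and 766 (722 to 811) in TLR9agonist_LW, with a log2 ratio of 0.49 (0.38 to 0.61) and a UMI in 52.9% and 59.4% of cells (T cells 4.17% and 6.90%). Inhba was thus the most abundant of the set after Mmp12 and moderately higher in TLR9agonist_LW, as it was in C1q-high macrophages (71.0 and 95.1 CPM, log2 ratio 0.42).

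The libraries parted at the other pair of markers. Atp6v0d2 lay at 74 CPM (63.7 to 85.5) in WT_LW and 304 (277 to 333) in TLR9agonist_LW, for a log2 ratio of 2.04 (1.79 to 2.29). The opposite held in C1q-high macrophages, with 29.3 and 9.09 CPM, for a log2 ratio of -1.69. Slc7a2 lay at 111 CPM (98.5 to 125) in WT_LW and 67.3 (54.9 to 81.7) in TLR9agonist_LW, for a log2 ratio of -0.72 (-1.07 to -0.39) that came to -1.03 without the highest cell of each library. Atp6v0d2 was seen in 24.6% and 43.6% of gated cells and Slc7a2 in 40.1% and 14.8% (T cells 0.994% and 1.07% and 2.04% and 2.39%). With each cell thinned to 3000 UMIs, which kept 176 and 100 cells, Atp6v0d2 was in 10.2% and 30% and Slc7a2 in 21.6% and 7% (T cells 0.5% and 0.4% and 0.7% and 1%). The transporter of arginine was thus more often seen in WT_LW and the proton pump subunit in TLR9agonist_LW at equal depth.

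The gate was not uniform, and Rnf128, Atp6v0d2 and a set of lysosomal and lipid genes were higher in the cells with most Mmp12. Lyz2 cells were set in order of their Mmp12 UMIs, as 0, 1 to 4, 5 to 9, 10 to 49 and 50 or more, with 38 and 28 cells in the last bin. Cells of the last bin were deeper, with medians of 18759 and 17946 UMIs against 10208 and 10615 for 5 to 9, so the levels are given as CPM. Rnf128 lay at 22.5 CPM in cells with 5 to 9 Mmp12 UMIs and 241 CPM in those with 50 or more in WT_LW, and at 33.4 and 135 CPM in TLR9agonist_LW. The same step was from 21.0 to 179 CPM and from 23.4 to 627 CPM for Atp6v0d2. Inhba and Slc7a2 followed this order in WT_LW, from 280.1 over 481 to 873 CPM and from 46.4 over 86.3 to 206 CPM in cells with 5 to 9, 10 to 49 and 50 or more Mmp12 UMIs. They did not in TLR9agonist_LW, with 940.5, 659 and 806 CPM for Inhba and 26.7, 86.8 and 64.8 CPM for Slc7a2. For Spp1, which encodes the secreted adhesion protein osteopontin, it was from 795 to 3766 CPM and from 1998 to 3725 CPM. Lipoprotein lipase, Lpl, ended at 1515 and 1683 CPM from 211 and 207 CPM, and ferritin heavy chain, Fth1, at 66146 and 87706 CPM from 30310.3 and 54914 CPM. Cells at the top of the Mmp12 range therefore shared high Spp1, Lpl and Fth1 in both libraries.

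Antigen presentation and the cytokine Il1b ran the other way. H2-Aa, a chain of MHC class II, lay at 6756 CPM in cells with 5 to 9 Mmp12 UMIs and 2018 CPM in cells with 50 or more in WT_LW, and at 5946 and 1829 CPM in TLR9agonist_LW. Il1b, which encodes interleukin-1 beta, went from 2125 to 949.7 CPM and from 6063 to 728 CPM. The complement gene C1qa was lower along the whole order, from 1836 CPM at 0 Mmp12 UMIs to 457 CPM in WT_LW and from 2513 to 385 CPM in TLR9agonist_LW. Ly6c2, a surface protein of inflammatory monocytes, lay at 151 CPM in WT_LW cells with 0 Mmp12 UMIs and 4.04 CPM in those with 50 or more. In WT_LW the cells with most Mmp12 were thus those with least Ly6c2.

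**Figure D2:**
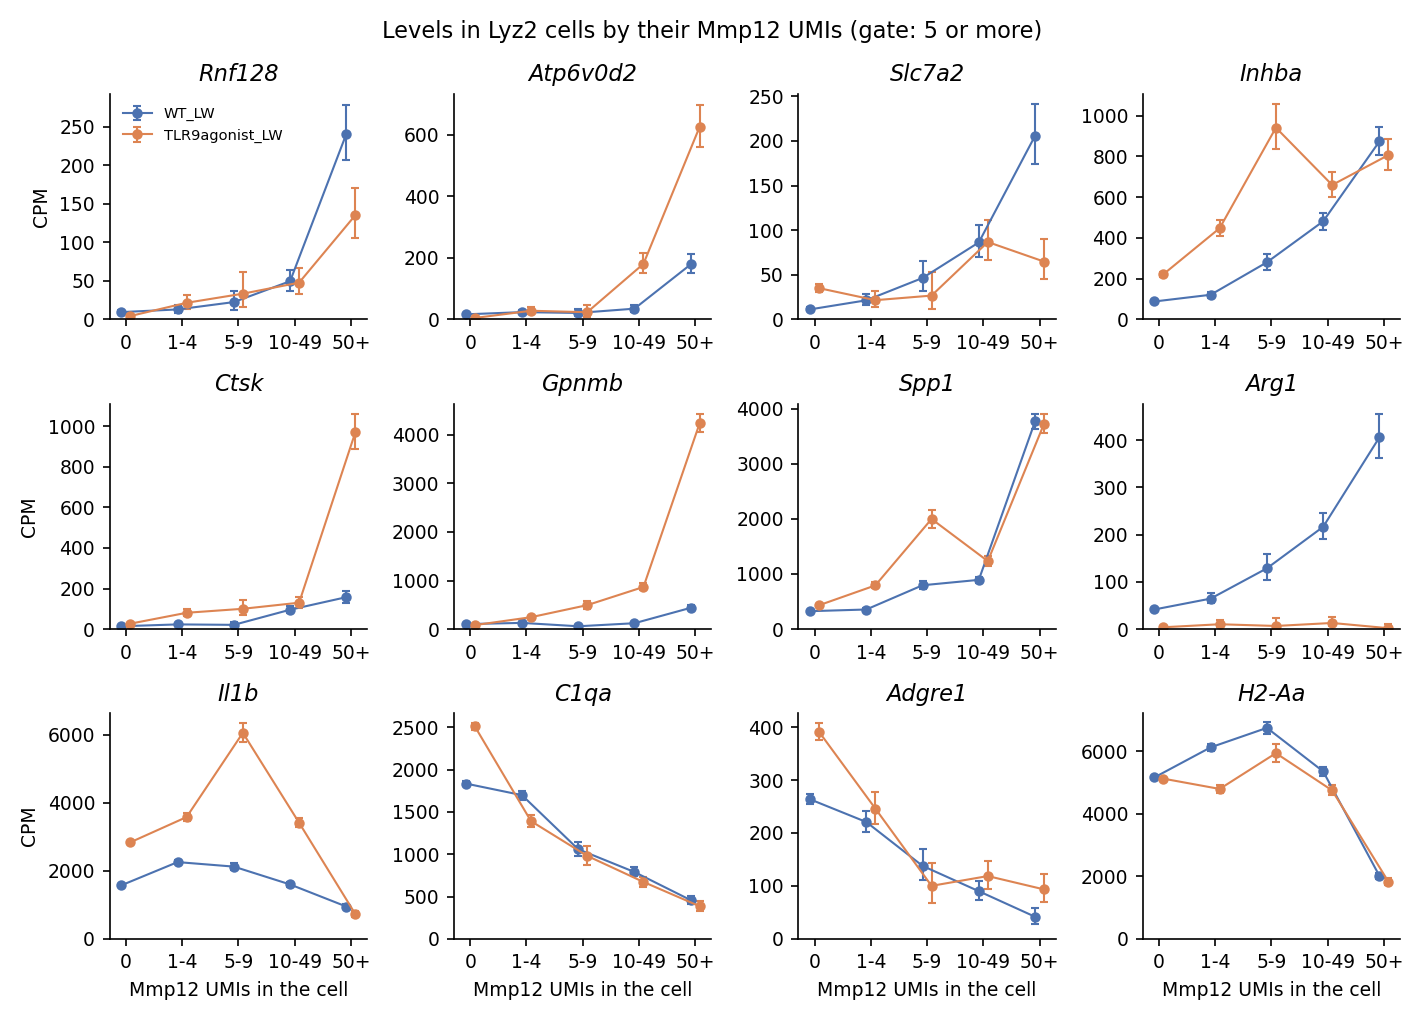
Each panel plots the CPM of 1 gene (linear axis from 0, exact Poisson interval) in Lyz2 cells binned by Mmp12 UMIs, for WT_LW (blue) and TLR9agonist_LW (orange). In the bin of 50 or more, Atp6v0d2, Ctsk and Gpnmb are higher in TLR9agonist_LW, Slc7a2, Rnf128 and Arg1 higher in WT_LW, and Spp1 and H2-Aa close in both.

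In the cells with 50 or more Mmp12 UMIs the libraries stood far apart in several genes. There Ctsk, the collagen-degrading cathepsin K, lay at 157 CPM in WT_LW and 969.9 in TLR9agonist_LW, and Gpnmb, a lysosome-associated glycoprotein, at 438 and 4242 CPM. Ctsl, the endopeptidase cathepsin L, lay at 1287 and 5837 CPM. Arg1, the arginase of alternatively activated macrophages, lay at 406 and 1.91 CPM, with a UMI in 50% and 3.57% of these cells. Slc7a2, which carries the substrate of arginase, lay at 206 and 64.8 CPM and was in 76.3% and 21.4%. Among cells with 5 to 9 Mmp12 UMIs, Atp6v0d2 was at 21.0 and 23.4 CPM, and at 34.9 and 181 CPM among those with 10 to 49, so its difference between the libraries lay in the cells with 10 or more. Other genes were further apart lower in the order. Ptgs2 lay at 277 and 1881 CPM in cells with 10 to 49 Mmp12 UMIs and at 303 and 871 CPM in those with 50 or more, and the gaps of Spp1 and Il1b were wide in cells with 5 to 9, as given above.

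Across single cells thinned to 3000 UMIs, 841 genes were compared with Mmp12 by Spearman's rho, as a description, since cells of a library share their source and depth was only levelled to 1 total. The highest rho in the lower of both libraries belonged to Ctsd, the aspartic protease cathepsin D, with 0.45 and 0.44 in WT_LW and TLR9agonist_LW, and to Lpl with 0.43 and 0.55. Prdx1, a peroxidase of the antioxidant response, had 0.50 and 0.39, the lysosomal tetraspanin Cd63 0.46 and 0.38, and Spp1 0.46 and 0.37. The lowest were the MHC class II chains H2-Ab1 (-0.42 and -0.42) and H2-Aa (-0.42 and -0.41) and the invariant chain Cd74 (-0.43 and -0.35). Il1b had -0.27 and -0.52. Lysosomal and lipid genes thus lay at the positive end and MHC class II genes at the negative end in both libraries.

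Set against C1q-high macrophages of the same library, the gate differed in matrix proteases, fusion genes, glutathione and glycolytic genes, and in the genes of resident macrophages. Because Mmp12 defined the gate and the C1q genes the comparison, these are descriptions of the rule's cells. Of 6106 genes with at least 50 UMIs in the gate, 166 (2.72%) were at least 2-fold higher than in C1q-high macrophages in both libraries and 156 (2.55%) at least 2-fold lower. Members of the gene lists past this mark are named below because of their values. The gate is not a population without complement: 78 gated cells (41.7%) of WT_LW and 49 (48.5%) of TLR9agonist_LW also held 10 or more C1q UMIs.

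Several proteases and fusion genes were higher in the gate. Mmp19, a matrix metalloprotease, lay at 694 CPM in WT_LW and 1107 in TLR9agonist_LW, against 279.8 and 200.1 CPM in C1q-high macrophages, and the membrane protease Adam8 at 284 CPM in WT_LW and 264 in TLR9agonist_LW, against 125 and 46.3 CPM. Of 15 measured genes of the protease list, 6 passed the mark upwards, among them Mmp12 itself, and 1 downwards, the urokinase gene Plau. Dcstamp, a membrane protein required for the fusion of osteoclasts and giant cells, lay at 177 CPM in WT_LW and 94.97 in TLR9agonist_LW, against 8.29 and 10.6 CPM. Ctsk lay at 94.0 CPM in WT_LW and 415 in TLR9agonist_LW, against 12.4 and 37.2 CPM, and the integrin Itgax (CD11c) at 312 CPM in WT_LW and 211 in TLR9agonist_LW, against 58.2 and 23.0 CPM. Of 17 measured genes of the fusion and osteoclast list, 5 were higher (Ctsk, Dcstamp, Atp6v0d2, Mmp9 and Cd9) and 1 lower (Cd81), while Calcr and Oscar, genes of mature osteoclasts, were at 0 in both libraries. Mmp9 lay at 37.2 CPM in WT_LW and 3.30 in TLR9agonist_LW, against 5.1 and 1.06 CPM. In TLR9agonist_LW it was seen in 4 gated cells, so its call there rests on few counts. Of 17 measured V-ATPase subunits, Atp6v0d2 alone passed the mark.

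Genes outside these lists with high ratios were of varied function. Met, the receptor of hepatocyte growth factor, lay at 92.8 CPM in WT_LW and 108 in TLR9agonist_LW, against 13.1 and 10.6 CPM. F7, coagulation factor VII, lay at 147 CPM in WT_LW and 77.2 in TLR9agonist_LW, against 21.4 and 8.03 CPM, and Wfs1, a protein of the endoplasmic reticulum, at 28.8 CPM in WT_LW and 94.3 in TLR9agonist_LW, against 2.77 and 2.32 CPM. AA467197 (the mouse counterpart of NMES1) lay at 787 CPM in WT_LW and 298 in TLR9agonist_LW, against 56.1 and 28.9 CPM. Each was seen in many cells, 70 and 49 in WT_LW and TLR9agonist_LW for Met, 84 and 39 for F7, 25 and 34 for Wfs1 and 127 and 40 for AA467197. Ccl17, a chemokine that draws CCR4-bearing T cells, lay at 331 CPM in WT_LW and 64.0 in TLR9agonist_LW, but in 22 and 4 cells, with 76.3% of its UMIs in TLR9agonist_LW from 1 cell.

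Genes of the antioxidant response and of glucose use were higher in the gate. Of 16 measured genes of the redox and iron list, 7 passed the mark upwards and 0 downwards. Slc7a11, the cystine importer that feeds glutathione synthesis, lay at 791 CPM in WT_LW and 1010.4 in TLR9agonist_LW, against 258 and 178 CPM, and the peroxiredoxin Prdx1 at 5616 CPM in WT_LW and 3748 in TLR9agonist_LW, against 1044 and 905 CPM. Srxn1, Txnrd1, Gclm, Gclc and Sod2 were the others. Of 27 measured genes of glycolysis and hypoxia, 6 passed upwards and 0 downwards, with the glucose transporter Slc2a1 at 109 CPM in WT_LW and 141 in TLR9agonist_LW, against 51.3 and 48.4 CPM, and the glycolytic enzyme Eno1 at 429.6 CPM in WT_LW and 335 in TLR9agonist_LW, against 212 and 122 CPM. Of 20 measured lipid genes, Lpl, the scavenger receptors Cd36 and Olr1, and Spp1 were higher, and Apoe and Pltp lower. Cd36 lay at 269 CPM in WT_LW and 418 in TLR9agonist_LW, against 83.8 and 42.3 CPM, and Apoe, the main apolipoprotein of tissue macrophages, at 3869.8 CPM in WT_LW and 3969 in TLR9agonist_LW, against 16639 and 14583 CPM.

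Genes of resident and alternatively activated macrophages stood mostly lower. Of 12 measured, 9 were lower and 2 higher. Ccl8, a chemokine of dermal macrophages, lay at 50 CPM in WT_LW and 182 in TLR9agonist_LW, against 975.4 and 4728 CPM in C1q-high macrophages. The mannose receptor Mrc1 lay at 263 CPM in WT_LW and 216 in TLR9agonist_LW, against 732 and 1038 CPM, and the selenium carrier Sepp1 at 300 CPM in WT_LW and 217 in TLR9agonist_LW, against 1807 and 1789.5 CPM. The 2 that were higher were Arg1 (249.6 CPM in WT_LW and 7.91 in TLR9agonist_LW) and Chil3, a chitinase-like protein of alternatively activated macrophages and monocytes (94.4 CPM in WT_LW and 3.96 in TLR9agonist_LW), both seen mainly in WT_LW. C1q-high macrophages held 40.0 and 0 CPM of Arg1 and 8.29 and 0.845 CPM of Chil3, so in TLR9agonist_LW both calls rest on few counts. The interferon list had 7 of 16 lower and 0 higher, with the antiviral regulator Irf7 at 18 CPM in WT_LW and 33.6 in TLR9agonist_LW, against 52.8 and 140.1 CPM.

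The word inflammatory in the label was borne out only in part by the genes of that name. Of 15 measured inflammatory mediators, 1 was at least 2-fold higher than in C1q-high macrophages in both libraries, Il1a, which encodes interleukin-1 alpha (96.0 CPM in WT_LW and 173 in TLR9agonist_LW, against 27.4 and 26.2 CPM), and 1 lower, Il18. Il1b lay at 1547 CPM in WT_LW and 3009 in TLR9agonist_LW, against 1508 and 1589.6 CPM, and Tnf, the gene of tumour necrosis factor, at 370.4 CPM in WT_LW and 243 in TLR9agonist_LW, against 280.5 and 218 CPM. Of 17 measured chemokines, 3 were higher, Ccl6, Ccl9 and Cxcl3, and 5 lower, Ccl2, Ccl3, Ccl4, Ccl7 and Ccl12. Cxcl3, a neutrophil attractant, lay at 1894 CPM in WT_LW and 1484 in TLR9agonist_LW, against 208 and 208 CPM, and Ccl2, the main attractant of monocytes, at 205 CPM in WT_LW and 303 in TLR9agonist_LW, against 509.5 and 995 CPM. The cells are therefore called Mmp12-high macrophages, by their rule.

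**Figure D3:**
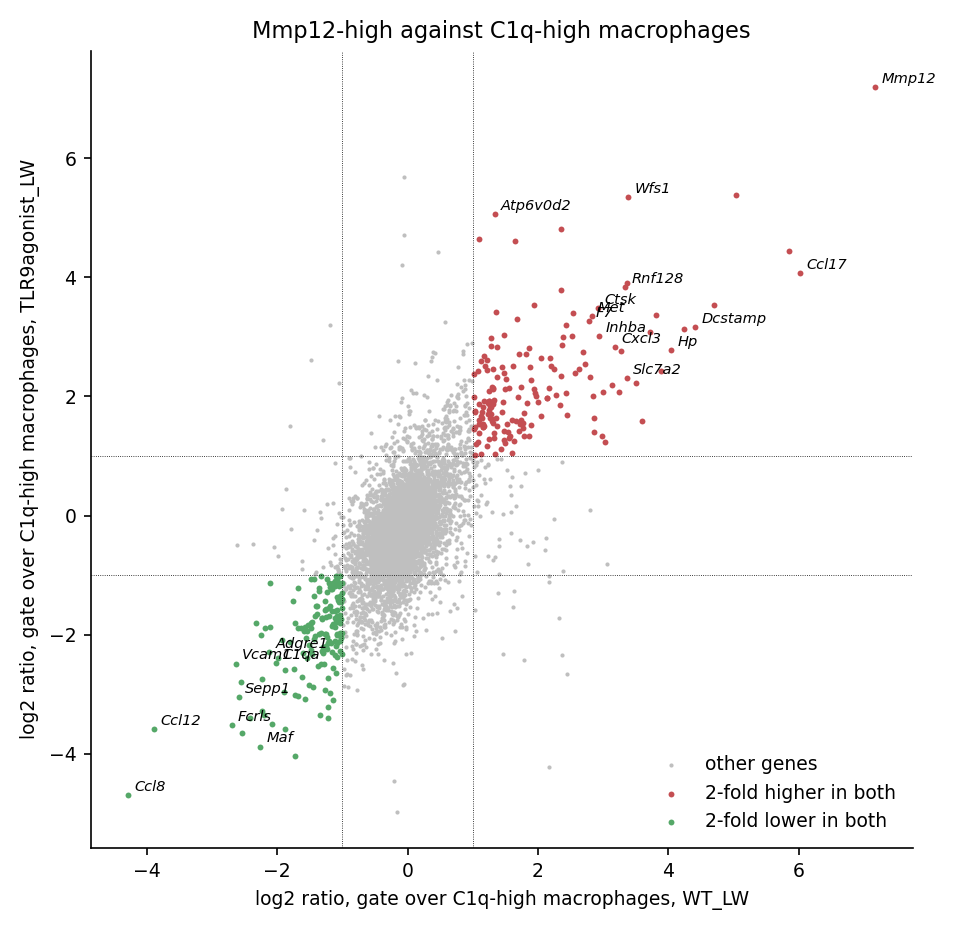
Each point is 1 of the genes with at least 50 UMIs in the gate and a UMI in all 4 groups, by the log2 ratio of gated cells to C1q-high macrophages in WT_LW (x) and in TLR9agonist_LW (y), with dotted lines at 2-fold. Mmp12, Ccl17, Dcstamp, Rnf128 and Wfs1 lie at the upper right and Ccl8, Ccl12, Maf and Fcrls at the lower left.

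Between the libraries, the gated cells of TLR9agonist_LW had more transcripts of a few lysosomal, lipid and early-response genes. They had fewer of most measured monocyte genes and of several immediate early and alternative activation genes. Of 6106 genes, 167 (2.74%) were at least 2-fold higher in TLR9agonist_LW and 622 (10.2%) at least 2-fold lower. The balance depended on the scaling, since the median gene with at least 50 UMIs had a log2 ratio of -0.33 and the median gene with at least 200 UMIs -0.21. Centred on the latter, 229 genes were higher and 349 lower. The ratios below are on total UMIs, and 0.21 is to be added for a ratio relative to that median gene.

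Gpnmb was among the genes with the widest gaps. It lay at 199 CPM (182 to 217) in WT_LW and 1961 (1892 to 2033) in TLR9agonist_LW, for a log2 ratio of 3.30 (3.17 to 3.44), while in C1q-high macrophages it lay at 143 and 91.7 CPM, for a log2 ratio of -0.64. It was seen in 27.8% and 60.4% of gated cells, and in 15.9% and 54% after thinning (T cells 1.2% and 5.6%). Ctsl lay at 604 CPM (574 to 635) in WT_LW and 2813 (2729 to 2898) in TLR9agonist_LW, for a log2 ratio of 2.22 (2.13 to 2.31), and Ctsk had a log2 ratio of 2.14 (1.92 to 2.36). Of 12 measured cathepsins and their inhibitors, these 2 passed the 2-fold mark upwards and 0 downwards, with a list median of 0.19. Cathepsin genes of other members were close in both libraries, with Ctsd at 1398 CPM in WT_LW and 1595 in TLR9agonist_LW, Ctsb at 1672 CPM in WT_LW and 2346 in TLR9agonist_LW and Ctss at 3313 CPM in WT_LW and 3663 in TLR9agonist_LW.

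Mfge8, a secreted bridge between dying cells and phagocytes, lay at 58.8 CPM in WT_LW and 774 in TLR9agonist_LW, for a log2 ratio of 3.72. In TLR9agonist_LW, 36.0% of its UMIs came from 1 cell, and without the highest cell of each library the ratio was 3.58. Fabp5, a fatty acid carrier, lay at 1739 CPM in WT_LW and 4648 in TLR9agonist_LW, for a log2 ratio of 1.42 (1.36 to 1.47) against 0.07 in C1q-high macrophages, while T cells held 1242 and 2750.1 CPM. Fabp4, its relative, lay at 60 CPM in WT_LW and 152 in TLR9agonist_LW. With Gpnmb these were the 3 of 20 measured lipid genes past the mark upwards, against 0 downwards. Lpl (684 CPM in WT_LW and 780.2 in TLR9agonist_LW) and Spp1 (1722 CPM in WT_LW and 2247 in TLR9agonist_LW) were closer. The ferritin genes Fth1 and Ftl1, which store iron, lay at 42391 CPM in WT_LW and 65049 in TLR9agonist_LW and at 13361 CPM in WT_LW and 21269.8 in TLR9agonist_LW, with log2 ratios of 0.62 and 0.67 against -0.06 and -0.09 in C1q-high macrophages. Fth1 was thus the most abundant of the genes described in both libraries, and both ferritin genes were higher in TLR9agonist_LW, short of 2-fold.

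Early-response mediators formed the next group. Ptgs2, the inducible cyclooxygenase that makes prostaglandins, lay at 375 CPM (351 to 399.6) in WT_LW and 1610.5 (1547 to 1676) in TLR9agonist_LW, for a log2 ratio of 2.10 (1.99 to 2.21), and was seen in 32.4% and 64% of thinned cells (T cells 8.3% and 17.1%). Il10, the gene of the inhibitory cytokine interleukin-10, lay at 19.6 CPM in WT_LW and 98.3 in TLR9agonist_LW but in 15 and 14 cells. Il6 lay at 8.40 CPM in WT_LW and 37.6 in TLR9agonist_LW, with 14.6 and 105 CPM in T cells. Nos2, the inducible nitric oxide synthase, lay at 2.8 CPM in WT_LW and 65.3 in TLR9agonist_LW, with 76.8% of its TLR9agonist_LW UMIs in 1 cell. Il1b had a log2 ratio of 0.96 (0.90 to 1.02) and its soluble antagonist Il1rn, at 696 CPM in WT_LW and 1043 in TLR9agonist_LW, 0.58. Tnf had -0.61, and Tnfsf9, the ligand of 4-1BB, was the member past the mark downwards (82.0 CPM in WT_LW and 36.9 in TLR9agonist_LW).

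In all, 4 of 15 measured inflammatory mediators passed the mark upwards and 1 downwards. The list median was 0.44, or 0.65 relative to the median gene. It came to -0.13 over the 11 genes still measured with cells past the keratinocyte and endothelial limits left out. It came to 0.21 over 10 genes with cells past the neutrophil limit left out as well. The first of these left 166 and 51 cells, and the summed keratinocyte markers in the gate as reported were 1030.3 and 1783 CPM. Their part in the result was not tested.

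Chemokines split. Cxcl2, a neutrophil attractant, was the most abundant at 11142 CPM (11012 to 11274) in WT_LW and 24496 (24247 to 24746) in TLR9agonist_LW, for a log2 ratio of 1.14 (1.11 to 1.16) against 0.03 in C1q-high macrophages, where it lay at 6658 and 6804 CPM. T cells held 709.9 and 2739 CPM. Its relatives Cxcl1 and Cxcl3 lay at 889.9 CPM in WT_LW and 1183 in TLR9agonist_LW and at 1894 CPM in WT_LW and 1484 in TLR9agonist_LW. The monocyte attractants Ccl7 and Ccl12 lay at 60.4 CPM in WT_LW and 152 in TLR9agonist_LW and at 12 CPM in WT_LW and 56.7 in TLR9agonist_LW, and the interferon-induced Cxcl9 at 28.4 CPM in WT_LW and 82.4 in TLR9agonist_LW, with 59.2% of its TLR9agonist_LW UMIs in 1 cell. Ccl22 (25.6 CPM in WT_LW and 7.25 in TLR9agonist_LW) and Ccl24 (109.6 CPM in WT_LW and 21.8 in TLR9agonist_LW), attractants of T cells and eosinophils, were lower in TLR9agonist_LW, seen in 19 and 7 and in 25 and 8 cells. The highest WT_LW cell held 28 of the 75 Ccl22 UMIs of both gates, and for Ccl24 90 of 307. For Ccl12, the highest TLR9agonist_LW cell held 33 of 116. Of 17 measured chemokines, 4 passed the mark upwards and 3 downwards.

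Genes of growth, matrix and polyamines followed. Thbs1, the matrix protein thrombospondin-1, lay at 555 CPM (526 to 585) in WT_LW and 2200.1 (2126 to 2276) in TLR9agonist_LW, for a log2 ratio of 1.99 (1.90 to 2.08) against 0.22 in C1q-high macrophages, with 109 and 199.7 CPM in T cells. Odc1, which makes the polyamine putrescine from ornithine, lay at 369.6 CPM in WT_LW and 1539 in TLR9agonist_LW, for a log2 ratio of 2.06 (1.95 to 2.17), while T cells held 1146 and 2729 CPM. Areg, a ligand of the EGF receptor, lay at 238 CPM in WT_LW and 561 in TLR9agonist_LW in 43 and 46 cells, beside 235 and 2320.5 CPM in T cells. Hk2, the inducible hexokinase, was the 1 of 27 glycolysis and hypoxia genes past the mark, at 101 CPM in WT_LW and 264 in TLR9agonist_LW. Ckb, a creatine kinase of osteoclasts, lay at 89.6 CPM in WT_LW and 259.8 in TLR9agonist_LW and Wfs1 had a log2 ratio of 1.71 (1.29 to 2.14). Of 13 measured growth factors and related matrix genes, Areg and Thbs1 passed the mark upwards and Pdgfb, a growth factor of mesenchymal cells, downwards (56.8 CPM in WT_LW and 23.7 in TLR9agonist_LW).

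Arginine use differed in composition. Arg1 lay at 249.6 CPM (230.4 to 270) in WT_LW and 7.91 (4.09 to 13.8) in TLR9agonist_LW, for a log2 ratio of -4.98 (-5.94 to -4.16), in 50 and 4 cells. C1q-high macrophages held 40.0 and 0 CPM and T cells 4.55 and 0.225 CPM. After thinning it was in 19.3% and 2% of gated cells (T cells 0.8% and 0%). Ass1, which rebuilds arginine from citrulline, lay at 176 CPM in WT_LW and 102 in TLR9agonist_LW. Of 12 measured genes of arginine metabolism, Nos2 and Odc1 passed the mark upwards and Arg1 downwards.

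Most monocyte genes stood lower in TLR9agonist_LW. Of 12 measured, 9 passed the mark downwards and Thbs1 upwards, with a list median of -1.15, or -0.94 relative to the median gene. Plac8 (log2 ratio 0.36) and Cx3cr1 (0.52) lay higher, short of the mark. Chil3 and F13a1 are also in the alternative activation list and Nr4a1 in the AP-1 and stress list, so these lists are not separate results. Chil3 lay at 94.4 CPM in WT_LW and 3.96 in TLR9agonist_LW, in 23 and 4 cells, and Ly6c2 at 64.8 CPM in WT_LW and 5.94 in TLR9agonist_LW. Ccr2, the receptor that brings monocytes into tissue, lay at 184 CPM in WT_LW and 58.0 in TLR9agonist_LW, for a log2 ratio of -1.67 (-2.01 to -1.33), close to that of C1q-high macrophages (-1.74). Fn1, the matrix protein fibronectin, lay at 2006 CPM (1950.3 to 2062) in WT_LW and 908 (860.2 to 957) in TLR9agonist_LW, for a log2 ratio of -1.14 (-1.23 to -1.06) against -1.53 in C1q-high macrophages. Fpr2, a receptor for formylated peptides, lay at 44.4 CPM in WT_LW and 7.91 in TLR9agonist_LW, for a log2 ratio of -2.49 (-3.48 to -1.63), where C1q-high macrophages had 1.55. The monocyte genes Vcan, S100a4, Nr4a1, Hp and F13a1 were the others. S100a4 was also lower in T cells (2295 and 1098 CPM), and Ly6c2 likewise (177 and 40.7 CPM).

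Alternative activation and resident genes showed 6 of 12 past the mark downwards and Ccl8 upwards, with a median of -0.88, or -0.67 relative to the median gene. Mgl2, a C-type lectin of dermal macrophages and dendritic cells, lay at 291 CPM in WT_LW and 133 in TLR9agonist_LW, and the platelet chemokine Pf4 at 753 CPM in WT_LW and 301 in TLR9agonist_LW. Ccl8 lay at 50 CPM in WT_LW and 182 in TLR9agonist_LW, with 47.5% of its TLR9agonist_LW UMIs in 1 cell, and it was higher in C1q-high macrophages of that library as well (975.4 and 4728 CPM). Of 18 measured phagocytic receptors and bridging proteins, Mfge8 was higher and Axl, Stab1, Fcgr2b and Clec4n were lower. Clec4n (dectin-2), a receptor for fungal mannan, lay at 1279 CPM (1235 to 1324) in WT_LW and 488 (454 to 524) in TLR9agonist_LW, for a log2 ratio of -1.39 (-1.51 to -1.27) against -0.39 in C1q-high macrophages. The inhibitory IgG receptor Fcgr2b lay at 582 CPM in WT_LW and 278 in TLR9agonist_LW.

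Several transcription factors of the immediate early response were lower. Fosb lay at 613 CPM (583 to 645) in WT_LW and 131 (114 to 151) in TLR9agonist_LW, for a log2 ratio of -2.22 (-2.44 to -2.01), Fos at 1084 CPM in WT_LW and 314 in TLR9agonist_LW, for a log2 ratio of -1.79 (-1.93 to -1.65), and Egr1 at 363 CPM in WT_LW and 103 in TLR9agonist_LW, for a log2 ratio of -1.82 (-2.07 to -1.57). In C1q-high macrophages the log2 ratios were -0.63, -0.64 and 0.07. The orphan receptor Nr4a1 had -2.08 in the gate and 0.69 in C1q-high macrophages. Of 19 genes of AP-1 and dissociation stress, these 4 were past the mark downwards and Ier3, an early-response gene linked to survival, upwards (980.3 CPM in WT_LW and 2076 in TLR9agonist_LW), with a median of -0.69. Junb, which pairs with Fos proteins, lay at 1402 CPM in WT_LW and 1371 in TLR9agonist_LW, and the heat shock gene Hspa1a at 944 CPM in WT_LW and 1181 in TLR9agonist_LW, against 1159.9 and 3468 CPM in C1q-high macrophages. The partners thus differed, Fos and Fosb past the mark and Junb nearly level.

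Other regulators lay on both sides. Of 24 measured transcription factors, 5 passed the mark downwards (Mitf, Tfec, Batf3, Klf4 and Egr2) and Bhlhe41 upwards. Klf4, a factor of monocyte differentiation, lay at 602 CPM in WT_LW and 235 in TLR9agonist_LW, and Mitf, which drives lysosomal and osteoclast genes, at 78 CPM in WT_LW and 33.6 in TLR9agonist_LW. Mitf and its relative Tfec were thus lower in the library in which Gpnmb, Ctsk and Atp6v0d2 were higher. The fusion gene Dcstamp lay at 177 CPM (161 to 194) in WT_LW and 94.97 (80.1 to 112) in TLR9agonist_LW, for a log2 ratio of -0.90 (-1.18 to -0.62), and the gelatinase Mmp9 at 37.2 CPM in WT_LW and 3.30 in TLR9agonist_LW. Of 17 measured fusion and osteoclast genes, 3 were higher (Ctsk, Atp6v0d2, Ckb) and 3 lower (Mmp9, Mitf, Tfec), so the list as a whole had no direction (median -0.17, 0.04 relative to the median gene). Among proteases and their inhibitors, Mmp8 (10.00 CPM in WT_LW and 25.7 in TLR9agonist_LW) was higher, and Timp1 (186 CPM in WT_LW and 56.1 in TLR9agonist_LW) and Timp3 (23.6 CPM in WT_LW and 7.91 in TLR9agonist_LW) lower. Mmp12 and Mmp19, the abundant members, stayed within 2-fold (log2 ratios -0.15 and 0.67).

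The receptor of the agonist was hardly seen in these cells. Tlr9 had 1 UMI in the gate of each library, which is below the floor of 3 counts, so no ratio is given. T cells had 0.122 and 0.225 CPM and C1q-high macrophages 1.52 and 3.59 CPM. Tlr2, the receptor for bacterial lipoproteins, was the most abundant of the family at 202 CPM in WT_LW and 113 in TLR9agonist_LW, and Myd88, the adaptor of most of these receptors, lay at 20.4 CPM in WT_LW and 15.2 in TLR9agonist_LW. Of 12 measured receptors and adaptors, 1 passed the mark, the kinase Irak4, downwards (22 CPM in WT_LW and 9.23 in TLR9agonist_LW). Of 16 genes of NF-kB feedback, 1 passed it downwards, Nfkbid, and 0 upwards, with Nfkbia, the inhibitor of NF-kB, at 1054 CPM in WT_LW and 1655 in TLR9agonist_LW and Tnfaip3 at 301 CPM in WT_LW and 247 in TLR9agonist_LW.

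Interferon-induced genes had 3 of 16 past the mark upwards and 0 downwards, with a median of 0.36, or 0.56 relative to the median gene. These were Oasl2 (10.4 CPM in WT_LW and 24.4 in TLR9agonist_LW), Gbp2 (24.4 CPM in WT_LW and 54.1 in TLR9agonist_LW) and Cxcl9. Gbp2 turned to a log2 ratio of -0.21 with cells past the limits on other lineages' UMIs left out. Oasl2 was higher in C1q-high macrophages of TLR9agonist_LW too (log2 ratio 0.93), and Isg15, a ubiquitin-like protein induced by interferon, lay at 56.4 CPM in WT_LW and 103 in TLR9agonist_LW. MHC class II genes were close, with 1 of 9 past the mark (H2-DMb2, downwards) and H2-Aa at 4740.1 CPM in WT_LW and 3977 in TLR9agonist_LW. The summed C1q genes were close as well, with C1qa at 763 CPM in WT_LW and 634 in TLR9agonist_LW, for a log2 ratio of -0.27. Of 11 measured cell cycle genes, 1 passed the mark (Ube2c, downwards), and 39.4% of its WT_LW UMIs came from 1 cell.

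**Figure D4:**
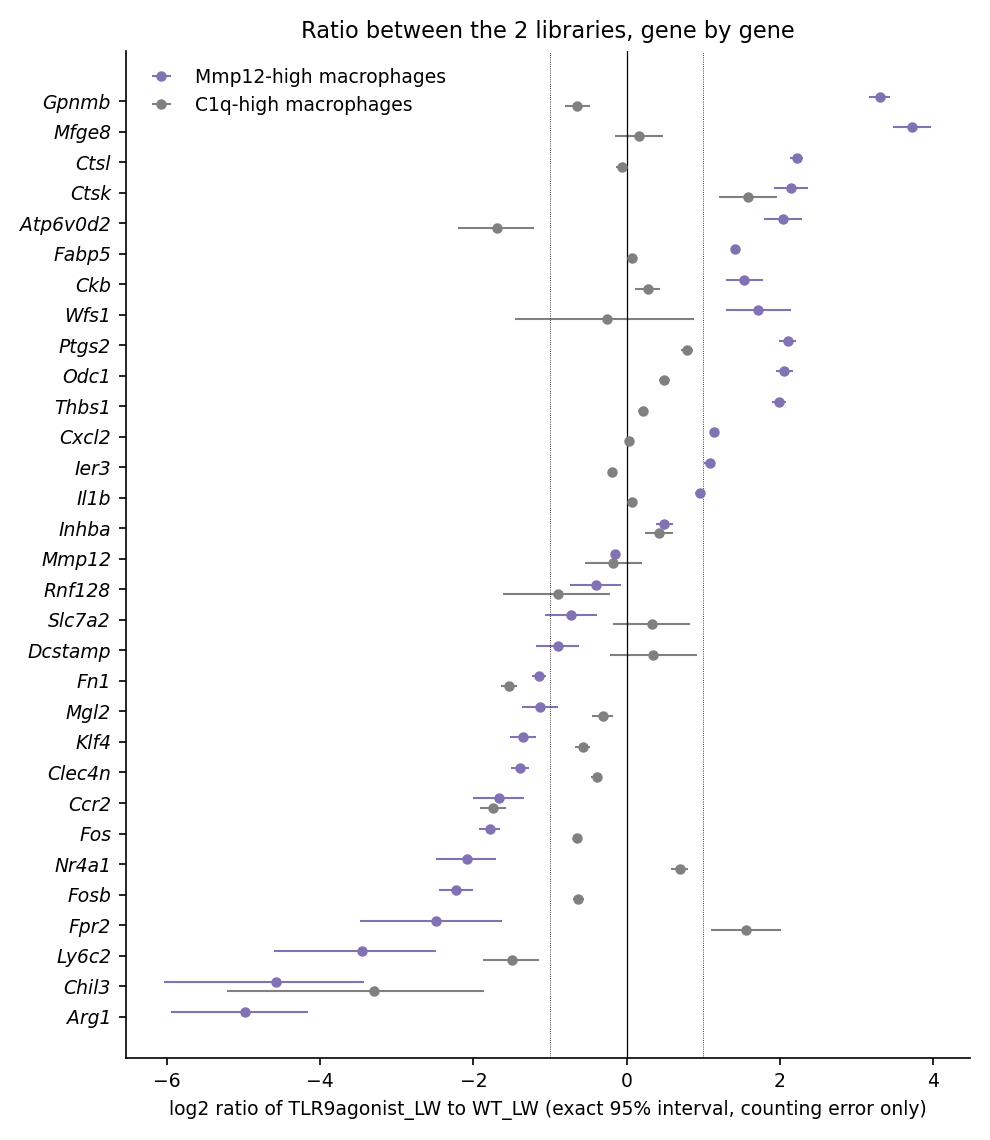
Points give the log2 ratio of TLR9agonist_LW to WT_LW with its exact interval for named genes in the Mmp12-high macrophages (purple) and in C1q-high macrophages (grey), with dotted lines at 2-fold. Gpnmb, Ctsl and Fabp5 are higher in the gate of TLR9agonist_LW and close to 0 or below it in C1q-high macrophages, and Arg1 has no grey point because C1q-high macrophages of TLR9agonist_LW held 0 UMIs of it.

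Transcripts of other cell types moved with the library and stand beside all of these results. The summed level of the 12 keratinocyte markers was 1030.3 and 1783 CPM in the gate, 726 and 3254 CPM in C1q-high macrophages and 2842 and 6653 CPM in T cells. Of these markers 7 passed the mark upwards in the gate and 1 downwards, the basal keratin Krt5 (210.4 CPM in WT_LW and 36.9 in TLR9agonist_LW), which was higher in C1q-high macrophages of TLR9agonist_LW (76.3 and 185 CPM). The 10 neutrophil markers summed to 251 and 996 CPM in the gate and 319 and 3139.6 CPM in T cells, with Retnlg at 0 in both gates. S100a8 and S100a9, alarmins of neutrophils, lay at 66 CPM in WT_LW and 399.7 in TLR9agonist_LW and at 24 CPM in WT_LW and 356 in TLR9agonist_LW, with 129.5 and 1492 CPM and 157 and 1586 CPM in T cells. The 9 fibroblast markers summed to 1311 and 2018 CPM in the gate and 8478 and 20147 CPM in T cells. The 8 endothelial markers went the other way in the gate, with 75.6 and 18.5 CPM, against 109 and 144 CPM in C1q-high macrophages and 158 and 189.8 CPM in T cells. Of these, Pecam1 (30.4 CPM in WT_LW and 1.32 in TLR9agonist_LW) and Cdh5 (17.2 CPM in WT_LW and 5.94 in TLR9agonist_LW), adhesion proteins of the vessel wall, passed the mark downwards, with 25% and 23.3% of their WT_LW UMIs from 1 cell. In TLR9agonist_LW, Pecam1 was seen in 2 gated cells with at most 1 UMI in each. The 6 pericyte markers summed to 58.4 and 23.7 CPM in the gate, 79.6 and 61.7 CPM in C1q-high macrophages and 568 and 308 CPM in T cells, with Rgs5 (29.6 CPM in WT_LW and 7.91 in TLR9agonist_LW) and Acta2 (17.6 CPM in WT_LW and 4.62 in TLR9agonist_LW) past the mark downwards. These sums were lower in the gate than in T cells of the same library. For the fibroblast markers this follows in part from the rule, which limits Col1a1 and Col1a2 in gated cells. T cells were also the shallower cells, so the same number of free UMIs per cell makes a higher CPM in them. The comparison therefore cannot tell how much free RNA the gate held. The part of these transcripts in the results above was not tested.

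Several of the genes with high ratios belonged to these groups. The cornified envelope genes Sprr2d, Sprr1b and Sprr2f lay at 0.8 CPM in WT_LW and 87.1 in TLR9agonist_LW, at 6.4 CPM in WT_LW and 73.2 in TLR9agonist_LW and at 0 CPM in WT_LW and 67.3 in TLR9agonist_LW, while T cells of TLR9agonist_LW held 279, 221 and 184 CPM. Serpinb2, an inhibitor of plasminogen activators made by keratinocytes and macrophages, lay at 6.8 CPM in WT_LW and 94.97 in TLR9agonist_LW, with 17.0 and 273 CPM in T cells, above the gate in both libraries. Near-identical relatives in the Sprr2, Krt6, Ly6c and chitinase-like families can share reads, which leaves the split between their members uncertain. Gpnmb, Atp6v0d2, Ctsl and Ptgs2 lay at 41.4, 2.54, 179.9 and 206 CPM in T cells of TLR9agonist_LW. Cdkn1c, an inhibitor of the cell cycle, was also among the genes with high ratios (4 CPM in WT_LW and 111 in TLR9agonist_LW), with 94.0% of its TLR9agonist_LW UMIs from 1 cell.

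**Figure D5:**
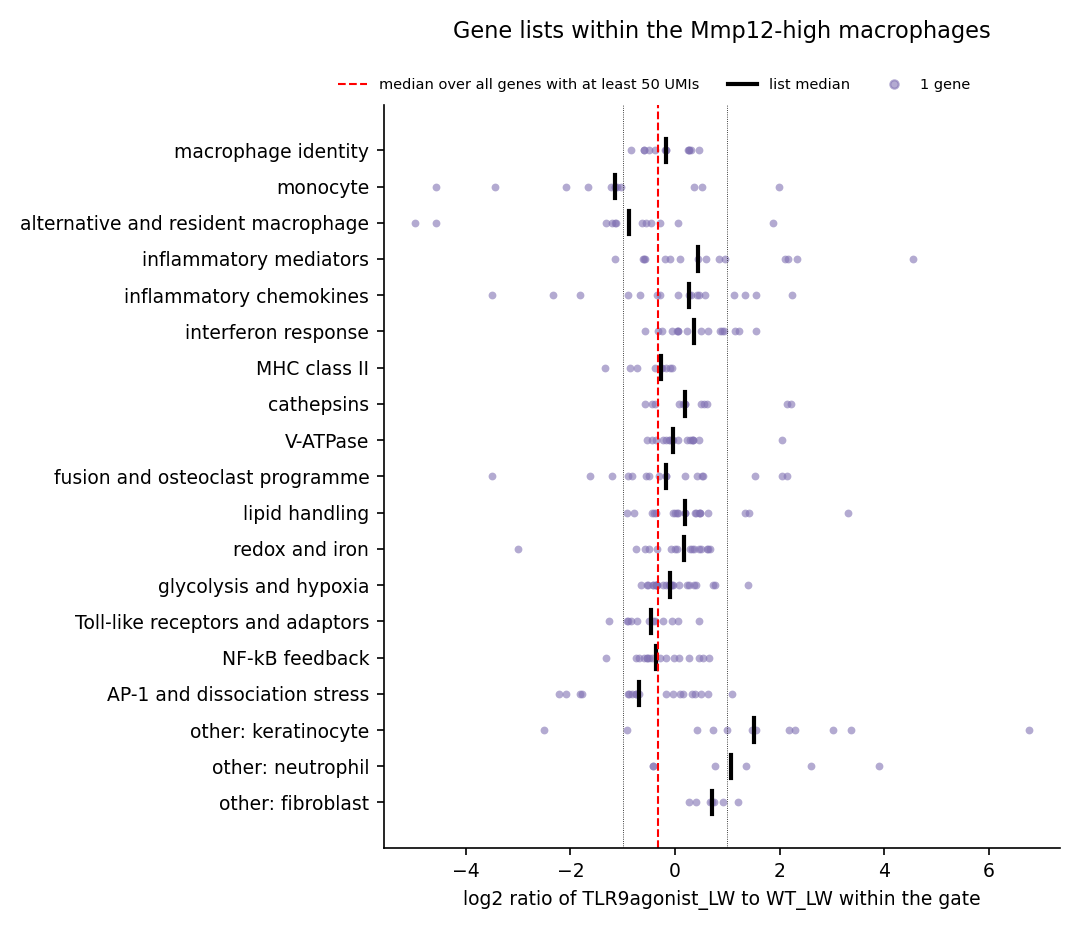
Each dot is the log2 ratio of TLR9agonist_LW to WT_LW within the gate for 1 gene of a list with at least 50 UMIs and a UMI in both libraries, black bars are list medians, and the red dashed line is the median of all 6106 genes (-0.33). Most monocyte and alternative activation genes lie to the left, most keratinocyte and neutrophil genes to the right, and most other lists straddle the line.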

How the data were processed

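Single-cell RNA was counted in 1 library per group. The deposited matrices hold counts of UMIs by gene and barcode, raw, for called cells only, and come from Cell Ranger 4.0.0 per the file headers. The submitters' processing notes also name fastp, Seurat and mm9, and the deposited counts carry no normalization or doublet removal. Reads of several near-identical genes may be split or dropped, and the extract protocol names more than 1 possible chemistry version.

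The cell filter, the gate and the C1q-high comparison are as in the results. The UMIs of each library's gated cells were added and scaled to CPM with an exact Poisson interval, ratios with the exact interval given the total, and shares with Clopper-Pearson intervals, all at 95% and for counting error only. With 1 library per group no test was run, and called means at least 2-fold among genes with at least 50 UMIs over the gate. A level below 3 counts is given without a ratio, but the counts of called genes used no such floor. They include genes with 0 or few UMIs on 1 side. Detection and co-variation were computed in cells thinned to 3000 UMIs (seed 0), leaving out 11 and 1 shallower gated cells, with 1000 T cells per library. Co-variation took genes seen in at least 30% of thinned cells. Doublets were scored with Scrublet in scanpy 1.11.5, whose automatic threshold called 0 cells, so cells ranked by score at the rates given above were left out as an alternative only. The scripts ran in Python 3.11.15 with pandas 2.3.3, scipy 1.17.1, numpy 2.4.6 and matplotlib 3.10.9, and counting steps were tested on simulated data.

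The members, the gene lists and the rule for named genes were chosen with earlier results of these data known. The rule took the markers, the 5 genes of each list with most UMIs, list members past 2-fold between the libraries, the 12 highest and 12 lowest genes by library ratio and the 15 highest and 15 lowest against C1q-high macrophages, among genes with at least 100 UMIs. Genes it took that are not described are in the counts. List members past 2-fold against C1q-high macrophages and genes in the order of Mmp12 were named after their values were seen. Symbols came from the files, and the upstream sequence from RefSeq.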

Additional observations from a re-analysis of the deposited data

Results flagged for a closer look

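Among genes taken by the rule for named genes, 4 differed between the libraries in opposite directions in the Mmp12-high and the C1q-high macrophages. Each was past 2-fold in both populations, with intervals that did not change sign, and for each the difference was not tested. Genes outside that rule were not searched, so 4 is not a count over all genes measured. Atp6v0d2 had a log2 ratio of TLR9agonist_LW to WT_LW of 2.04 in the gate and -1.69 in C1q-high macrophages, on 185 and 461 UMIs in the gate. Mmp8 had 1.36 and -1.59, on 25 and 39 UMIs, with 38.5% of those in TLR9agonist_LW from 1 cell. Krt5, a keratinocyte gene, had -2.51 and 1.28, with 30.4% of its WT_LW UMIs in the gate from 1 cell. Fpr2 had -2.49 and 1.55, on 111 and 12 UMIs.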

How the results depend on the processing

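Gated and Lyz2 cells past the limits on keratinocyte, neutrophil or endothelial UMIs were left out. This moved the share among all filtered cells to a log2 ratio of -2.82 and that among Lyz2 cells to -0.82, with 27 gated cells of TLR9agonist_LW left. The cause was not tested. Leaving out only the keratinocyte and endothelial ones, an alternative added after the data were seen, moved the share among all cells to -1.91 and that among Lyz2 cells to -0.52. Under the other alternatives the former lay between -1.10 and -0.83 and the latter between -0.23 and 0.04. Centred on the median gene, 229 genes were higher and 349 lower. With a minimum of 10 UMIs, 409 were higher and 1752 lower, and with 200 UMIs, 80 and 104 of 2427, so the excess of lower genes was smaller among genes with more UMIs. Elsewhere 128 to 171 were higher and 484 to 808 lower. The median of the inflammatory mediators ran from -0.13 to 0.65. The sign turned with the exclusion of all other lineages for Gbp2 (-0.21) and Ccr7 (-0.71). The sign turned with the keratinocyte and endothelial exclusion for Ccr7 (-0.35). The sign turned against cells with at least 30 C1q UMIs for Ly6c2 (0.0558, gate over C1q-high macrophages of TLR9agonist_LW). Counts against C1q-high macrophages stayed within 165 to 187 higher and 109 to 169 lower. Thinned to 1500 UMIs, the median difference in detection over the 5 markers was -0.79 percentage points, against 5.80 at 3000. Of the described genes past 2-fold between the libraries, 79 of 79 were still past it with a stricter cell filter, 78 of 79 without the highest doublet scores, 74 of 79 without the highest cell of each gene, 69 of 79 centred on the median gene, 67 of 77 with the keratinocyte and endothelial exclusion and 58 of 71 with that of all other lineages. No paired analysis was possible because each group has 1 library, and no replicate could be left out. The small number of gated cells, 187 and 101, limits genes seen in few cells, in which 1 cell can decide the level.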
